A study of Mus musculus with 68 samples.

Results

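The genes described here are 10 members of the Notch pathway: the receptors Notch1, Notch2 and Notch3, the ligands Jag1, Jag2 and Dll1, the DNA-binding factor Rbpj and the target genes Hes1, Hey1 and Heyl. They were taken by symbol from a list drawn up with earlier results of these data known, and are 10 of the 27179 gene rows in the count table. RNA had been sequenced from cultured mesenchymal stromal cells of mouse long bones, and all 10 genes are described in 4 groups of cultures. The groups were Het 3M (Ezh2 fl/+:Prrx1-Cre, 3 months, 3 cultures), WT 3M (Ezh2 +/+:Prrx1-Cre, 3 months, 4 cultures), Het 12M (Ezh2 fl/+:Prrx1-Cre, 12 months, 6 cultures) and WT 12M (Ezh2 +/+:Prrx1-Cre, 12 months, 4 cultures). All 4 groups carried Prrx1-Cre, a recombinase driven by a promoter active in the mesenchyme of the limb bud, so WT here means intact Ezh2 alleles and not the absence of Cre. The number of cultures is that of the labels; the design text of the series names 3 for every group. The labels do not say whether a culture came from 1 mouse or from pooled mice, so the tests below measure the spread between cultures. Ezh2 encodes the catalytic subunit of Polycomb repressive complex 2, which methylates histone H3.

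Notch receptors are membrane proteins that are activated by Jagged or Delta-like ligands on a neighbouring cell. Ligand binding leads to cleavage of the receptor, and its intracellular domain enters the nucleus, binds Rbpj and coactivators such as the Mastermind-like proteins, and turns on genes of the Hes and Hey families, which encode transcriptional repressors. In the skeleton the pathway is known for holding mesenchymal progenitors back from osteoblast differentiation, and in vessel walls Notch3 and Jag1 are known for their role in smooth muscle cells and pericytes.

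All 10 genes were detected, at levels that spanned more than 2 orders of magnitude when expressed per length. The level used throughout is CPM, the share of a gene in the counts of a culture after scaling by trimmed mean of M values (TMM), and dividing it by the exonic length of the gene in kilobases (GENCODE M21) allows genes to be compared. Averaged over the 17 cultures, the target Hes1 stood at 34.9 ± 27.0 CPM per kb (SD), the ligand Jag1 at 17.6 ± 13.6, the receptor Notch2 at 11.2 ± 3.22 and Rbpj at 8.37 ± 3.50 CPM per kb. The receptors Notch3 and Notch1 averaged 5.14 ± 2.58 and 1.83 ± 1.08 CPM per kb, and the target Hey1 averaged 1.61 ± 1.33 CPM per kb. Dll1 (0.285 ± 0.190), Heyl (0.260 ± 0.919) and Jag2 (0.0800 ± 0.0452) were below 1 CPM per kb on average. Neighbours in that order lay within 1 SD of the higher gene of each pair, apart from Notch3 and Notch1. Notch2 was the most abundant receptor per length and Jag1 the most abundant ligand in these cultures.

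The 10 genes also differed in how far cultures lay apart. Hes1 ran over a 32.6-fold range between its lowest and highest culture, Hey1 over a 20.4-fold range, Notch3 over a 12.6-fold range and Jag1 over a 10.4-fold range. Notch2 was the steadiest, with a 2.73-fold range. The SD of log2 CPM over the 17 cultures was above 0.541, the median of all 14897 genes tested, for 9 of the 10 genes and below it for Notch2 (0.404). Heyl had 0 counts in 5 cultures and 3 or fewer in 11, and Jag2 had 3 or fewer in 3 cultures, so a difference in these genes was often not detectable at this depth.

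**Figure D1:**
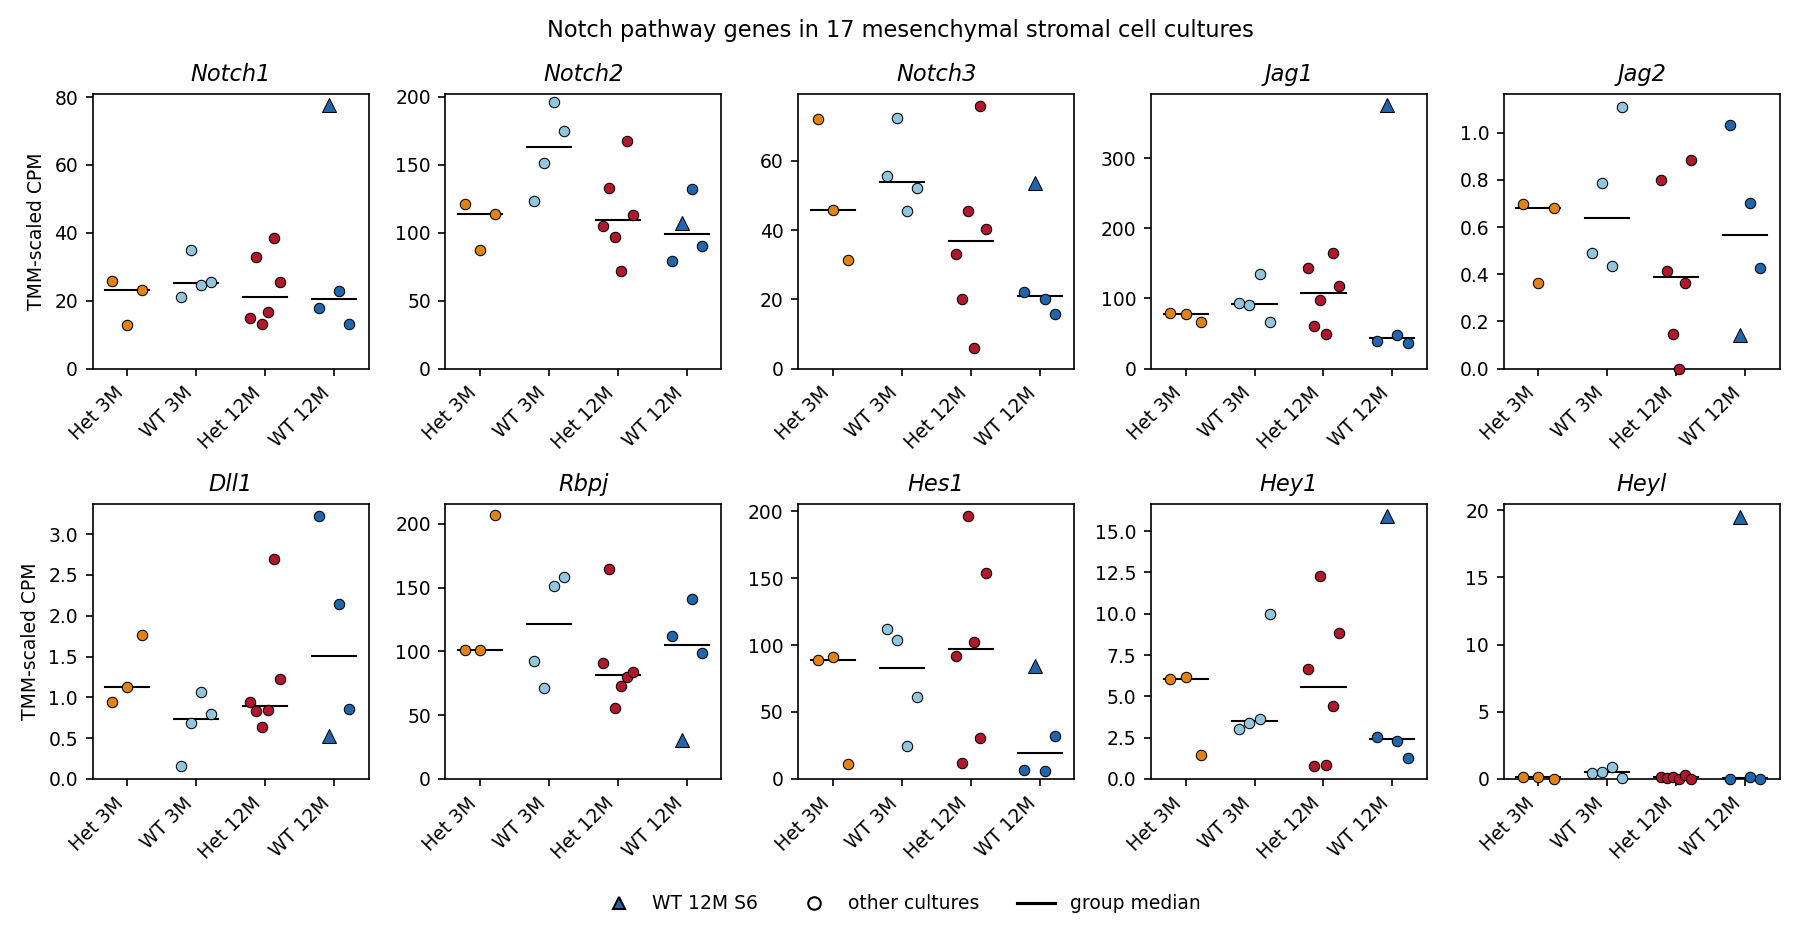
Level of each Notch pathway gene (TMM-scaled CPM, linear axes from 0) in every culture, by group; the short lines are group medians and the triangle is the culture WT 12M S6. The triangle is the highest of the 17 cultures for Notch1 (77.8), Jag1 (375), Hey1 (15.9) and Heyl (19.5) and the lowest for Rbpj (30.7).

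The depth was 13687876 to 28597221 counts per culture. Cells carried the markers of their label: all 14 mesenchymal stromal markers examined, among them Prrx1 and Pdgfra, were above 0 in every culture, with summed levels of 9320 to 33900 CPM. Of the other cell types, endothelial markers summed to 101 CPM at most, in WT 3M S5, and macrophage and myeloid markers reached 36000 CPM in Het 12M S9, against 2440 CPM in the next culture. Gene-level Ezh2 averaged 11.1 ± 2.29 CPM in Het 3M and 12.6 ± 2.32 CPM in WT 3M, and 17.7 ± 5.52 CPM in Het 12M and 19.8 ± 12.3 CPM in WT 12M (SD). Reads from the floxed exons cannot be singled out in a count per gene, so these values do not check the genotype. Under the label WT 12M, S2 and S13 were labelled male but had Xist at 363 and 295 CPM, S6 was labelled female but had Xist at 0.192 and the Y-linked Ddx3y at 41.3 CPM, and S7 had both (81.6 and 55.9 CPM). All results on WT 12M refer to the libraries so labelled.

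One culture, WT 12M S6, was at an extreme of the 17 for more of the 10 genes than any other culture. It had the highest level of 4 of the 10 genes and the lowest of 1. Het 12M S15 came next, as the lowest for Notch2, Notch3 and Jag2. It also shared the lowest level of Heyl, 0 counts, which 5 cultures had. How often WT 12M S6 was the extreme culture over all genes was not counted, so these counts are not shown to be particular to the Notch genes. Jag1, a ligand, was at 375 CPM in WT 12M S6, against 40.8 ± 5.92 CPM in the other 3 WT 12M cultures (SD), a 9.18-fold ratio, and against at most 165 CPM in any other culture. The receptor Notch1 was at 77.8 CPM in WT 12M S6, against 18 ± 4.96 CPM in the other 3 and at most 38.4 CPM elsewhere. Hey1, a target, was at 15.9 CPM in WT 12M S6, against 2.02 ± 0.687 CPM in the other 3 and at most 12.3 CPM elsewhere.

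Heyl, another target, had 407 counts in WT 12M S6, against 0, 4 and 0 counts in WT 12M S2, S7 and S13 and at most 19 counts in any other culture. Rbpj went the other way: it was at 30.7 CPM in WT 12M S6, against 117 ± 21.9 CPM in the other 3 WT 12M cultures and at least 56.0 CPM in all others. Hes1 (84.0 CPM), Notch3 (53.6 CPM) and Notch2 (107 CPM) in WT 12M S6 lay inside the range of the 16 other cultures. Jag1, Notch1, Hey1 and Heyl were thus beyond the range of the other cultures in WT 12M S6, and Hes1, Notch2 and Notch3 were within it.

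Of 6 further pathway genes, chosen with earlier results of these data known, 4 were at their highest in WT 12M S6. The receptor Notch4 was at 21.3 CPM, against 1.25 ± 0.144 CPM in the other 3 WT 12M cultures. Lfng, a glycosyltransferase that modifies Notch receptors, was at 134 CPM against 12.5 ± 3.27 CPM. The targets Hey2 and Nrarp were at 9.41 and 3.65 CPM, against 0.901 ± 0.295 and 0.338 ± 0.364 CPM. Hes6 (24.9 CPM) and Dll4 (0.0961 CPM) were inside the range of the other 16 cultures.

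The same culture carried markers of another cell type. Its Schwann and neural crest markers summed to 1250 CPM with 0 of 10 at 0, against at most 114 CPM elsewhere, and the transcription factor Sox10, which defines these cells, was at 231 CPM against at most 3.89 CPM in any other culture. Of the Schwann and neural crest markers, S100b (13.1 CPM) lay inside the range of the other cultures, which reached 96.0 CPM. The pericyte and smooth muscle markers of WT 12M S6 summed to 7580 CPM, against at most 5280 CPM elsewhere, with 2 of 12 at 0. Acta2 (3660 CPM) and Tagln (2970 CPM) made up most of that sum. Tagln, Mcam, Cspg4 and Cnn1 were at their highest there. Acta2, Myh11, Rgs5, Des, Abcc9 and Ndufa4l2 lay inside the range of the other cultures. The cell cycle markers of WT 12M S6 summed to 716 CPM, the highest of all cultures. Its endothelial markers summed to 7.92 CPM, with Cdh5 and Pecam1, which define endothelium, at 0.240 and 0.288 CPM. Prrx1 (211 CPM) and Pdgfra (96.0 CPM) were low in it and Col1a1 (13400 CPM) was high. The part of these cells in the Notch gene levels was not tested, and in bulk RNA fewer cells of a type and less RNA per cell cannot be told apart.

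**Figure D2:**
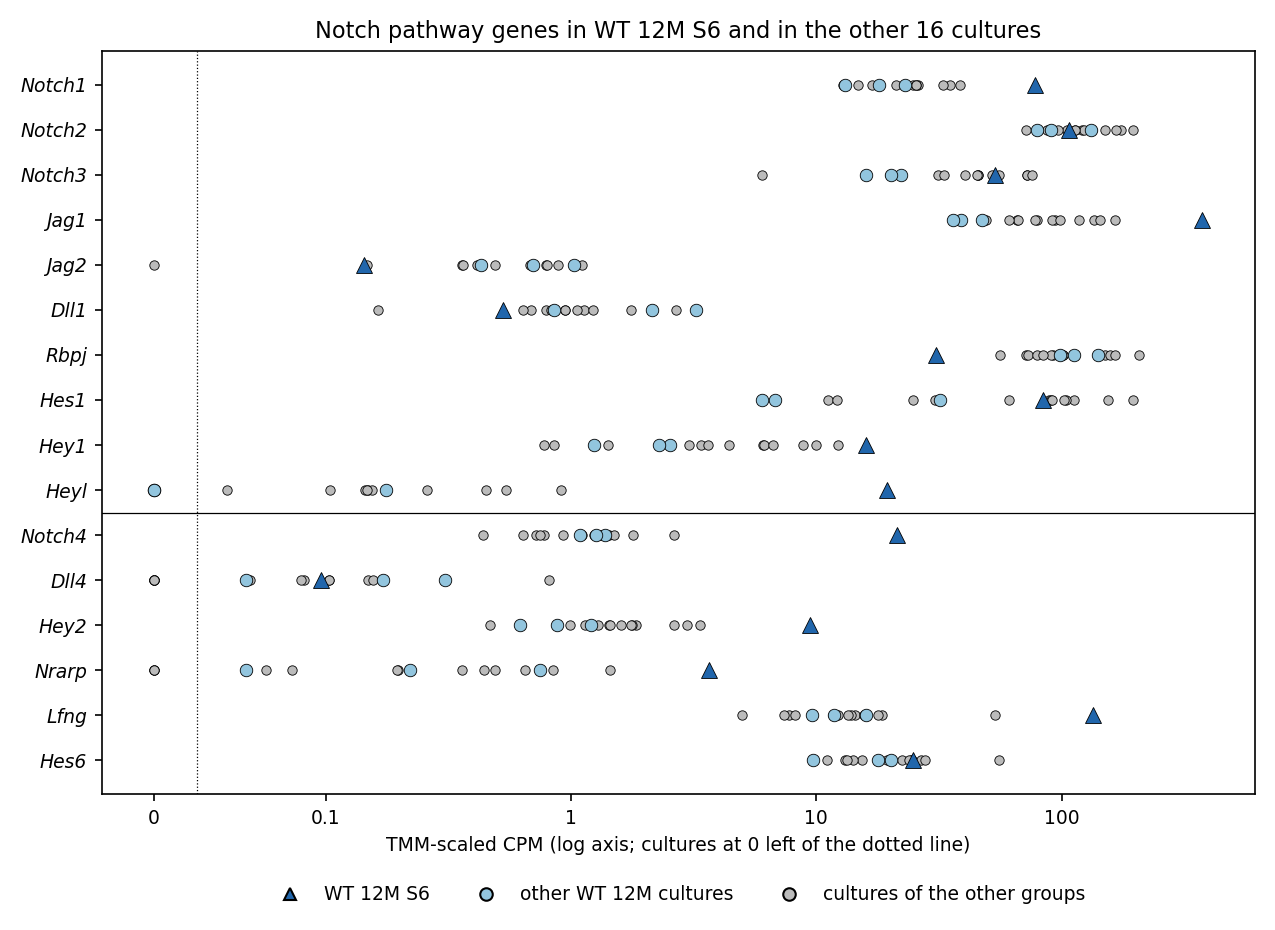
Level (TMM-scaled CPM, log axis) of the 10 genes, above the line, and of 6 further pathway genes, below it, with 1 point per culture. WT 12M S6 is the rightmost point for Notch1, Jag1, Hey1, Heyl, Notch4, Hey2, Nrarp and Lfng and the leftmost for Rbpj.

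The 250 bases upstream of a start site of Jag1 and Notch1, which were highest in WT 12M S6, and of Rbpj, which was lowest there, are shown to place these genes side by side (RefSeq, GRCm38.p6, 5′ to 3′ on the strand of the gene). Capitals mark TGGGAA, the core letters that RBPJ protein recognises, searched on both strands, so that it reads TTCCCA on the other strand. The windows are chr2:137116521-137116770 on the minus strand for Jag1, chr2:26503823-26504072 on the minus strand for Notch1 and chr5:53590096-53590345 on the plus strand for Rbpj.
Jag1: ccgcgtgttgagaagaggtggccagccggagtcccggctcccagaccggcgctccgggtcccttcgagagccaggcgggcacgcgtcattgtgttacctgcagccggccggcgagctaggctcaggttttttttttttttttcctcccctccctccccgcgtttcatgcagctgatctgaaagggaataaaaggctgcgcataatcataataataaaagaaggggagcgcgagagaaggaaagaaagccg
Notch1: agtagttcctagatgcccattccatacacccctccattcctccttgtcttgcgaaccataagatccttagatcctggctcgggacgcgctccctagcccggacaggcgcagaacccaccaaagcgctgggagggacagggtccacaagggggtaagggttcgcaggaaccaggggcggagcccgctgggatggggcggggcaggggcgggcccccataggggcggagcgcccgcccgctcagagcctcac
Rbpj: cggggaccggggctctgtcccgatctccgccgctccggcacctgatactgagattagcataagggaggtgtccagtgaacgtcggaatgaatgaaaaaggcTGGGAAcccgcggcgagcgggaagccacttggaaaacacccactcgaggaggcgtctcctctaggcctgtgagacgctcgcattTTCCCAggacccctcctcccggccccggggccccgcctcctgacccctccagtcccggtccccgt
The table of promoters holds 9 windows for 7 of the 10 genes, all but Hes1, Hey1 and Heyl. The core letters were in 2 of the 9 windows, both of Rbpj and overlapping each other, and in 21.6% of the 32851 promoters in the table. In the Rbpj window shown they began 149 and 65 bases before the start site. The longer letters GTGGGAA were in 0 of the 9 windows and in 5.42% of all promoters. A match of letters is a description of the sequence and says nothing about binding.

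Among the receptors, Notch2 was lower in Het 3M than in WT 3M cultures without overlap. It had 121, 87.4 and 114 CPM in Het 3M S8, S10 and S14, against 123, 151, 196 and 175 CPM in WT 3M S3, S4, S5 and S12. All 3 Het values were below all 4 WT values, the nearest being 121 and 123 CPM. The fitted log2 difference was -0.59 ± 0.27 (SE), with an adjusted p of 1.00 by edgeR's quasi-likelihood test with Benjamini-Hochberg adjustment over all genes. In Het 12M cultures Notch2 ran from 71.8 CPM over a median of 109 to 167 CPM, against 79.3, 107, 132 and 90.3 CPM in WT 12M S2, S6, S7 and S13. At 12 months the genotypes overlapped. Set against the 3-month WT cultures, WT 12M had a fitted log2 difference of -0.66 ± 0.25 (adjusted p = 0.568), and WT 12M S7 (132 CPM) lay above WT 3M S3 (123 CPM). The difference between the genotype effects at 12 and at 3 months was 0.75 ± 0.35 on the log2 scale for Notch2 (adjusted p = 0.864).

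Notch1 overlapped in every comparison. It had 25.9, 12.9 and 23.1 CPM in Het 3M S8, S10 and S14, against 21.1, 35.1, 24.7 and 25.5 CPM in WT 3M S3, S4, S5 and S12. In Het 12M it ran from 13.1 CPM over a median of 21.1 to 38.4 CPM, against 18, 77.8, 23.0 and 13.1 CPM in WT 12M S2, S6, S7 and S13. The fitted log2 difference of Het 12M against WT 12M was -0.48 ± 0.44 (adjusted p = 0.776), and it took the opposite sign without WT 12M S6, at 0.38 ± 0.36 (adjusted p = 0.910).

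Notch3 was lower at 12 months in most WT cultures. It had 22.1, 53.6, 20.1 and 15.9 CPM in WT 12M S2, S6, S7 and S13, against 55.5, 72.4, 45.5 and 52.1 CPM in WT 3M S3, S4, S5 and S12. The 3 WT 12M cultures other than S6 were below all 4 WT 3M cultures, and S6 was among them. In Het 12M it ran from 6.02 CPM over a median of 36.7 to 75.9 CPM, against 72.1, 45.8 and 31.4 CPM in Het 3M S8, S10 and S14. The Het groups overlapped, with a fitted log2 difference of -0.44 ± 0.53 (adjusted p = 0.947).

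Among the ligands, Jag1 separated the 12-month cultures by genotype, apart from WT 12M S6. It ran from 49.4 CPM over a median of 108 to 165 CPM in Het 12M, against 39.0, 375, 47.4 and 36.0 CPM in WT 12M S2, S6, S7 and S13. All 6 Het 12M cultures lay above 3 of the WT 12M cultures, by 49.4 against 47.4 CPM at the nearest, and below S6. At 3 months the values were 79.5, 78.3 and 65.9 CPM in Het 3M S8, S10 and S14, against 94.1, 91.2, 135 and 66.6 CPM in WT 3M S3, S4, S5 and S12, and the groups overlapped. The fitted log2 difference of Het 12M against Het 3M was 0.51 ± 0.64 (adjusted p = 0.947).

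Dll1 was near 1 CPM in most cultures. It had 0.945, 1.13 and 1.76 CPM in Het 3M S8, S10 and S14, against 0.164, 0.690, 1.06 and 0.791 CPM in WT 3M S3, S4, S5 and S12. The fitted log2 difference was 0.92 ± 0.69 (adjusted p = 1.00), and the groups overlapped. In Het 12M it ran from 0.636 CPM over a median of 0.897 to 2.69 CPM, against 3.22, 0.528, 2.15 and 0.855 CPM in WT 12M S2, S6, S7 and S13. Set against WT 3M, WT 12M had a fitted log2 difference of 1.31 ± 0.65 (adjusted p = 0.614). The genotype by age term was -1.41 ± 0.89 for Dll1 (adjusted p = 0.944). These values rest on 4 to 56 counts per culture. Jag2 rested on 0 to 28 counts and lay between 0 and 1.11 CPM, with overlap in every comparison.

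Rbpj, the DNA-binding partner of the cleaved receptors, had 101, 101 and 207 CPM in Het 3M S8, S10 and S14, against 92.2, 71.6, 151 and 158 CPM in WT 3M S3, S4, S5 and S12. In Het 12M it ran from 56.0 CPM over a median of 81.8 to 165 CPM, against 112, 30.7, 141 and 98.5 CPM in WT 12M S2, S6, S7 and S13. The groups overlapped in all 4 comparisons of 2 groups. Rbpj had the smallest p of the 10 genes in Het 12M against Het 3M, with a fitted log2 difference of -0.58 ± 0.42 (adjusted p = 0.946). Its highest Het 12M value, 165 CPM, was that of S9, the culture with 36000 CPM of macrophage and myeloid markers, and whether those cells carry it was not tested.

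Among the targets, Hes1 spread widely within every group. It had 88.7, 90.7 and 11.2 CPM in Het 3M S8, S10 and S14, against 112, 104, 24.8 and 61.2 CPM in WT 3M S3, S4, S5 and S12. In Het 12M it ran from 12.1 CPM over a median of 96.9 to 196 CPM, against 6.77, 84.0, 6.02 and 31.9 CPM in WT 12M S2, S6, S7 and S13. The 12-month genotypes overlapped, with a fitted log2 difference of 1.60 ± 0.85 (adjusted p = 0.640). The genotype by age term for Hes1 was 1.85 ± 1.28 (adjusted p = 0.954).

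The 3 cultures with the least Hes1 were WT 12M S7, WT 12M S2 and Het 3M S14. They had the 3 highest sums of chondrocyte markers, at 22200, 11100 and 17200 CPM, against at most 10700 CPM in the other cultures. Comp made up most of these sums, at 18300, 10000 and 14100 CPM, against at most 5460 CPM in the other cultures. Not all markers on the list followed: Col2a1 was at 830 CPM in WT 12M S2 and was highest in WT 3M S5, at 4740 CPM. The pericyte and smooth muscle markers of the same 3 cultures summed to 868, 486 and 508 CPM, against 836 CPM in Het 12M S9 and at least 1560 CPM in all others. Acta2 and Tagln made up most of these sums. Not all markers on this list were low there: of all cultures, Rgs5 was highest in WT 12M S2 (9.19 CPM) and Des in WT 12M S7 (3.03 CPM). The part of either set of markers in the level of Hes1 was not tested.

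Hey1 had 6.07, 6.14 and 1.42 CPM in Het 3M S8, S10 and S14, against 3.03, 3.4, 3.61 and 10 CPM in WT 3M S3, S4, S5 and S12. In Het 12M it ran from 0.778 CPM over a median of 5.54 to 12.3 CPM, against 2.53, 15.9, 2.29 and 1.24 CPM in WT 12M S2, S6, S7 and S13. Heyl had 3, 3 and 0 counts in Het 3M S8, S10 and S14, against 11, 11, 19 and 1 counts in WT 3M S3, S4, S5 and S12. Its fitted log2 difference at 3 months was -2.16 ± 1.93 (adjusted p = 1.00). In Het 12M Heyl had 0 to 5 counts per culture. Its fitted log2 difference of -5.45 ± 1.56 for Het 12M against WT 12M (adjusted p = 0.291) and of 3.34 ± 1.62 for WT 12M against WT 3M (adjusted p = 0.614) rested on the 407 counts of WT 12M S6, without which Heyl was too low to be tested.

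Across the 5 comparisons, 0 of the 10 genes passed an adjusted p of 0.05 in edgeR, as did 0% of the 14897 genes tested. DESeq2 called 0 of the 10 in each comparison, but it gave no adjusted p for Heyl, which was therefore not judged there. The share of all genes called by DESeq2 was 0% in Het 3M against WT 3M and 0.712% in Het 12M against WT 12M. It was 0.356% in WT 12M against WT 3M, 0.00671% in Het 12M against Het 3M and 0.235% in the interaction. In Het 3M against WT 3M, limma voom with quality weights called 1 of the 10 (Dll1), beside 8.67% of all genes. It called 3 in WT 12M against WT 3M (Notch3, Dll1 and Hes1), beside 10.1%, and 3 in the genotype by age interaction (Jag1, Dll1 and Hes1), beside 6.3%. It called 0 of the 10 in Het 12M against WT 12M, beside 1.15%, and 0 in Het 12M against Het 3M, beside 0.00671%. In Het 3M against WT 3M, 1 of the 10 genes, Notch2, had an unadjusted p under 0.05, beside 1.6% of all genes, and it was also the 1 gene without overlap, beside 3.57% of all genes that lay lower without overlap and 3.21% that lay higher. Notch2, Dll1 and Heyl apart, the other 7 genes had fitted log2 differences from -0.38 to 0.21. The median of the 10 genes was -0.26, against -0.02 over all genes. In Het 12M against WT 12M, 1 of 10 (Heyl) had an unadjusted p under 0.05, beside 8.36% of all genes, and 0 of 10 were without overlap, beside 0.853% lower and 0.47% higher. The other 7 genes, apart from Heyl, Hes1 and Notch1, ran from -0.49 to 0.40, and the median of the 10 genes was -0.15 against 0.05 over all genes.

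In WT 12M against WT 3M, 1 of 10 (Notch2) had an unadjusted p under 0.05, beside 8.22% of all genes, and 0 of 10 were without overlap, beside 4.07% lower and 4.03% higher. In Het 12M against Het 3M, 0 of 10 had an unadjusted p under 0.05, beside 3.28% of all genes, and 0 of 10 were without overlap, beside 1.42% lower and 0.49% higher. In the genotype by age interaction, 0 of 10 had an unadjusted p under 0.05, beside 5.76% of all genes. These comparisons share groups of cultures, WT 12M above all, and are not independent of each other.

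WT 12M S6 set the direction of several of these values. Without it, the 9 genes still testable included Jag1 at 1.38 ± 0.35 on the log2 scale in Het 12M against WT 12M (adjusted p = 0.350), Hes1 at 2.73 ± 0.93 (adjusted p = 0.538) and Hey1 at 1.49 ± 0.82 (adjusted p = 0.826), the 3 genes with the smallest p. With it, Jag1 was at -0.23 and Hey1 at 0.04. WT 12M S6 was singled out above by the levels of these same genes. It held the highest WT 12M value of Jag1, Notch3, Hes1 and Hey1. Leaving it out therefore lowers WT 12M for these genes, and the counts without it are not a separate test of them. Without it 2 of 9 genes had an unadjusted p under 0.05, both with higher Het 12M values, beside 6.5% of the 14825 genes tested. Jag1 was the 1 gene without overlap, beside 0.832% of genes that lay higher and 1.68% that lay lower. The sum of chondrocyte markers was separated in the same cultures, at 2470 to 4040 CPM in Het 12M against 4660 CPM or more in WT 12M S2, S7 and S13. In these WT 12M cultures Comp made up most of the sum, with 4100 CPM in S13. Other markers on the list overlapped. In S13, Col2a1 (479 CPM) lay inside the Het 12M range of 66.7 to 1480 CPM, and Sox9 (47.7 CPM) lay below that of 71.5 to 186 CPM. The part of these markers in the Jag1 difference was not tested.

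In WT 12M against WT 3M without S6, Jag1 was at -1.24 ± 0.37 (adjusted p = 0.534), Notch3 at -1.54 ± 0.57 (adjusted p = 0.678) and Dll1 at 1.62 ± 0.64 (adjusted p = 0.695). Of the 9 genes, 5 had an unadjusted p under 0.05, beside 6.85% of all genes: Jag1, Notch3, Hes1 and Notch2 with lower and Dll1 with higher WT 12M values. Notch3, Jag1 and Hey1 lay lower without overlap, beside 6.52% of all genes, and 0 lay higher, beside 6.44%. The genotype by age term of Jag1 was 1.74 ± 0.50 (adjusted p = 0.401), and 2 of 9 genes, Jag1 and Hes1, had an unadjusted p under 0.05 in that term, beside 6.4% of all genes. These counts too leave out a culture singled out by the same genes, and they are not a separate test of them. None of the 9 genes passed the adjusted threshold in any of these fits without S6, nor did any other gene.

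**Figure D3:**
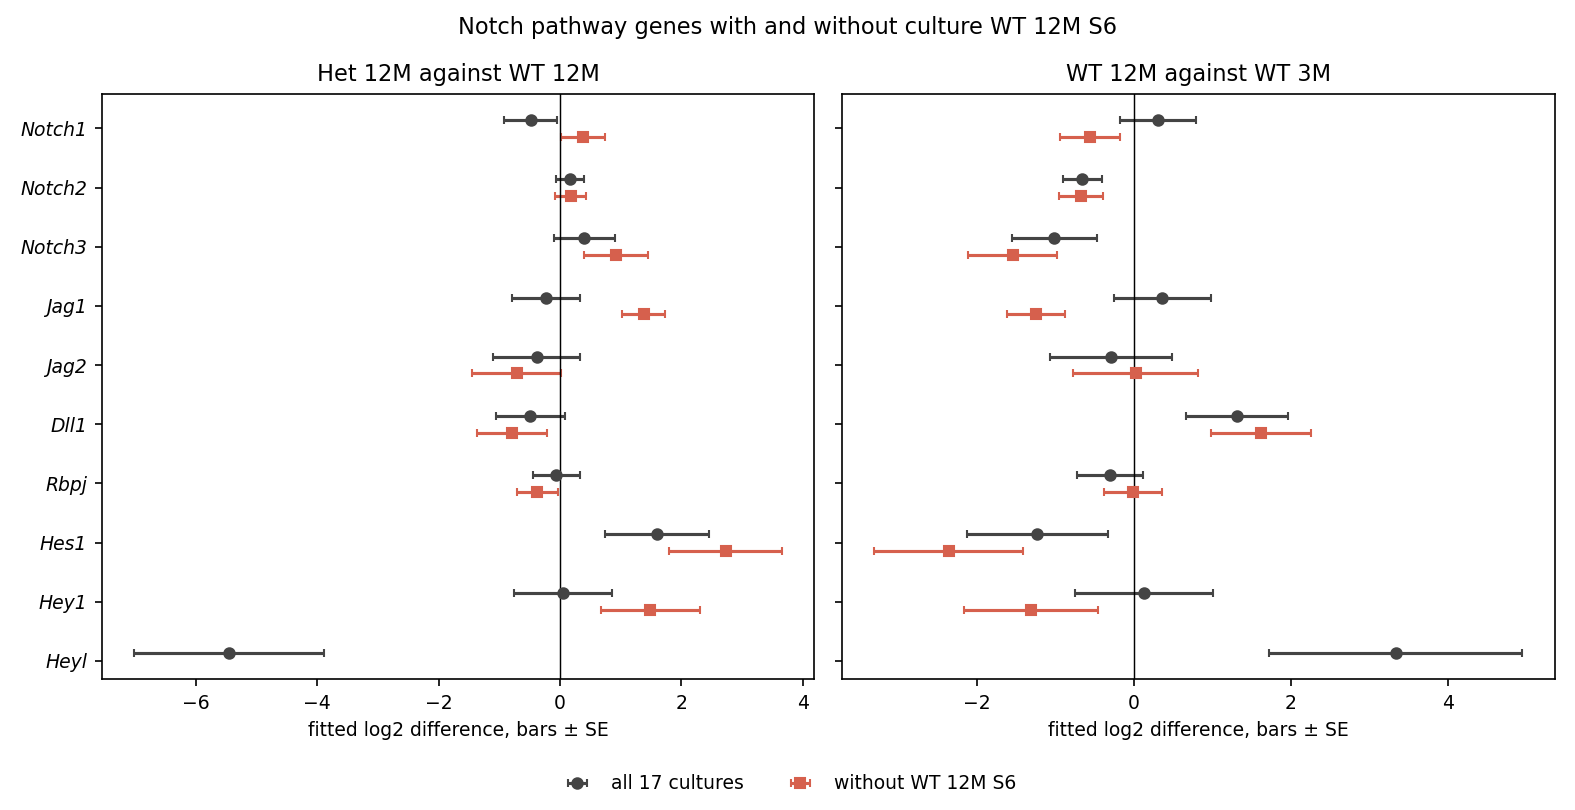
Fitted log2 difference (bars ± SE) of each gene in Het 12M against WT 12M (left) and in WT 12M against WT 3M (right), with all 17 cultures and without WT 12M S6. Jag1 lies at -0.23 and 1.38 in the left panel with and without S6 and at 0.36 and -1.24 in the right panel; Heyl could be fitted only with S6 included.

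Het 12M S9, with its macrophage markers, and Het 12M S15, with the lowest sum of mesenchymal stromal markers (9320 CPM), also stood apart from their group. Not all markers on this list were low in S15. Col1a1 (1500 CPM), Col1a2 (1660 CPM) and Prrx1 (171 CPM) were the lowest of all cultures there. Ly6a (2110 CPM) and Prrx2 (553 CPM) were the highest of all cultures. Without S9, S15 and WT 12M S6, Jag1 was at 1.69 ± 0.24 in Het 12M against WT 12M (adjusted p = 0.0979), the smallest of the 9 genes tested. Notch3 (1.34 ± 0.32, adjusted p = 0.205) and Hes1 (3.00 ± 0.87, adjusted p = 0.244) followed. Het 12M S15 and S9 held the 2 lowest Het 12M values of Jag1 (49.4 and 61.2 CPM), Notch3 (6.02 and 20.0 CPM) and Hey1 (0.85 and 0.778 CPM). WT 12M S6 held the highest WT 12M value of each. Leaving these cultures out therefore widens the gap between the groups for these genes, and the counts that follow are not a separate test of them. In the fit without these cultures 4 of 9 genes had an unadjusted p under 0.05, all with higher Het 12M values, beside 11.9% of all genes. For WT 12M against WT 3M it was 6 of 9, beside 15% of all genes, and for the genotype by age term 5 of 9, beside 13.4%. The genotype by age term of Jag1 was then 2.05 ± 0.33 (adjusted p = 0.0523). None of the 9 genes passed the threshold of 0.05 there, beside 0.0136% of genes in WT 12M against WT 3M and 0% in the other 2.

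Of 75 further pathway genes listed by role, 69 were expressed enough to be tested, and 0 passed the adjusted threshold in edgeR in any comparison. The 6 that were not tested were Dll4, a ligand typical of endothelium, and Hes2, Hes3, Hes5, Hes7 and Helt of the Hes family. In Het 3M against WT 3M, 1 of the 69 had an unadjusted p under 0.05, the corepressor subunit Hdac1, beside 1.6% of all genes. In Het 12M against WT 12M, 2 had higher and 4 lower values at that level, beside 8.36% of all genes. The higher were Adam17, a protease gene listed under receptor processing, and Id4. The lower were Notch4 at -2.83 ± 0.74 on the log2 scale (adjusted p = 0.239), Nrarp at -2.76 ± 1.15 (adjusted p = 0.545), the ubiquitin ligase gene Neurl1a and the coactivator gene Maml3.

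In WT 12M against WT 3M, 5 of the 69 had higher and 2 lower values at an unadjusted p under 0.05, beside 8.22% of all genes. Among the higher were Lfng at 2.07 ± 0.77 (adjusted p = 0.567) and Notch4 at 2.01 ± 0.83 (adjusted p = 0.590), both at their highest in WT 12M S6, and the lower were Id4 and Fhl1. In Het 12M against Het 3M it was 1 higher (Psen2, of the gamma-secretase) and 2 lower (Dlk2 and Neurl1a), beside 3.28% of all genes, and in the interaction 1 higher and 3 lower, beside 5.76%. The median of the 69 genes was -0.10, 0.03, 0.01, 0.00 and 0.12 on the log2 scale in the 5 comparisons in the order above, against -0.02, 0.05, 0.04, 0.07 and 0.08 over all genes.

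Each of the 3 targets was set against each of the 3 receptors and 3 ligands over the 17 cultures, on log2 CPM with a prior count of 2, giving 18 relations with 2-sided permutation p-values adjusted over the 18. Pearson's r was above 0 in 11 and had an adjusted p under 0.05 in 5. Hey1 with Jag1 was the 1 relation that passed by both measures, with r = 0.68 (permutation p = 0.00242, adjusted 0.0145) and Spearman's rho = 0.71 (permutation p = 0.00182, adjusted 0.0317). It was r = 0.53 without WT 12M S13 and S6, the 2 cultures farthest from the median of Jag1. Hey1 with Notch3 had r = 0.70 (permutation p = 0.00131, adjusted 0.0118) and rho = 0.59 (permutation p = 0.0150, adjusted 0.0598), and r = 0.55 without Het 12M S15 and WT 12M S13.

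Heyl with Jag1 had r = 0.79 (permutation p = 0.00051, adjusted 0.00918) and rho = 0.61 (permutation p = 0.0118, adjusted 0.0598), and r = 0.53 without the 2 farthest cultures. Heyl had 3 or fewer counts in 11 cultures, so most of its values in these relations lay at the floor of detection. Heyl with Notch1 had r = 0.70 (permutation p = 0.00580, adjusted 0.0209), but rho = 0.42 (permutation p = 0.0972, adjusted 0.219) and r = 0.38 without Het 3M S10 and WT 12M S6, so that it rests on those 2 cultures. Hes1 with Dll1 was the 1 negative relation of the 5, with r = -0.65 (permutation p = 0.00380, adjusted 0.0171), rho = -0.58 (permutation p = 0.0166, adjusted 0.0598) and r = -0.58 without WT 12M S2 and WT 3M S3. Hes1 with Jag1 had r = 0.45 (permutation p = 0.0714, adjusted 0.196) and rho = 0.43 (permutation p = 0.0840, adjusted 0.216). With each culture centred on its group mean, Hey1 with Jag1 had r = 0.69 (adjusted permutation p = 0.00882) and Heyl with Jag1 r = 0.91 (adjusted permutation p = 0.00054), and 5 of 18 passed by r. These within-group values were 0.54 and 0.72 without WT 12M S13 and S6. Without WT 12M S6, Het 12M S9 and Het 12M S15, 0 of 18 passed, with r = 0.55 over 14 cultures for both Hey1 with Jag1 and Heyl with Jag1 (adjusted permutation p = 0.109 each).

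**Figure D4:**
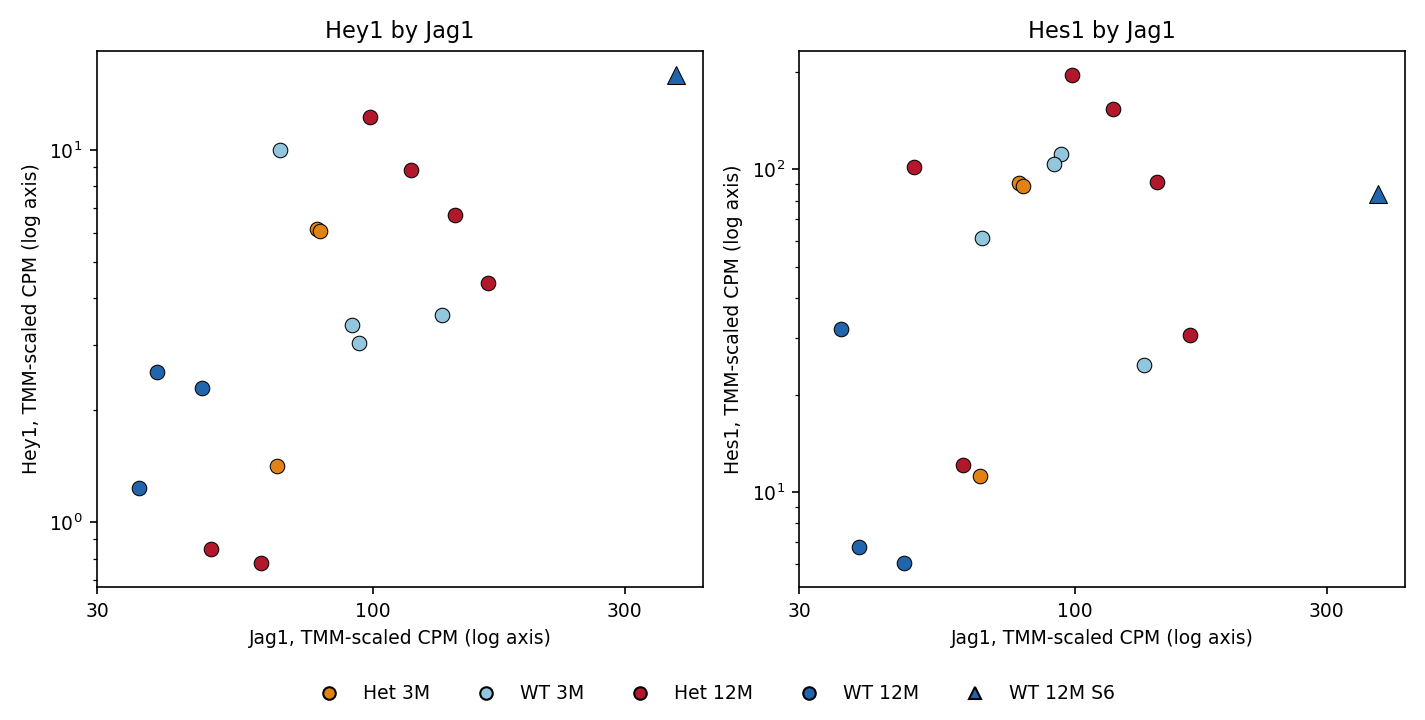
Hey1 (left) and Hes1 (right) against Jag1 in each culture (TMM-scaled CPM, both axes log), coloured by group. The 3 WT 12M cultures other than S6 sit at the lowest Jag1 (36.0 to 47.4 CPM) with Hey1 at 1.24 to 2.53 CPM, and S6 sits alone at 375 CPM with Hey1 at 15.9 CPM.

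Genes with the most similar pattern over the 17 cultures were sought among 12573 genes, as a description with no test. The values share depth and culture composition. For Notch1 they were Sbf1, Arid1a and Cabin1 (r = 0.836, 0.832 and 0.830), for Notch2 Ubr4, Hectd4 and Tmem131 (0.923, 0.916 and 0.899) and for Notch3 Sh3pxd2a, Usp22 and Elmo2 (0.919, 0.902 and 0.898). For Jag1 they were Gper1, Lama1 and Myom1 (0.862, 0.844 and 0.841), and for Dll1 Dlg2, Klhl10 and Zfp324 (0.834, 0.814 and 0.792). For Rbpj they were Cp, Arhgef6 and Arhgap6 (0.867, 0.836 and 0.833). For the targets they were Ppp2cb, Nxn and Ext1 with Hes1 (0.908, 0.900 and 0.884), Col5a2, Epb41l4a and Lims2 with Hey1 (0.851, 0.822 and 0.820) and Col15a1, Adamts7 and Shc4 with Heyl (0.901, 0.895 and 0.887). Jag2 was below the mean of 1 CPM set for this search. No other member of the 10 was among the 3 nearest of any of them.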

How the data were processed

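RNA from 17 cultures of mouse mesenchymal stromal cells was sequenced, each over 4 lanes, with a library kit (TruSeq RNA v2, per the labels' protocols) that does not mark strand. The deposited values are raw read counts per Entrez gene. The authors used Subread and featureCounts with mm10, per the submitters' processing notes; versions and annotation are not given in the sources used here. Lanes differed by counting error (chi-square per degree of freedom 1.002 to 1.086) and were summed. The closest cultures, Het 3M S8 and S10, differed by more (17.4) and were counted separately. Of 27179 identifiers 25275 had a RefSeq symbol.

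All 17 cultures entered 1 model with a term per group, in R 4.3.3 with edgeR 4.0.16: TMM scaling, filterByExpr (14897 genes kept), 2-sided quasi-likelihood F-test, Benjamini-Hochberg adjustment over all genes tested, threshold 0.05. The biological coefficient of variation was 0.512. The model had no sex term because labelled sex went against sex-linked transcripts in WT 12M. By label, Het 3M had 1 female and 2 male cultures and Het 12M had 5 female and 1 male. WT 3M and WT 12M each had 2 female and 2 male. Age and sex are therefore partly mixed in Het 12M against Het 3M. Genotype and labelled sex are partly mixed in the comparisons of Het with WT, and so in the interaction. A log2 difference is positive where the group named first was higher, and is given ± SE. The code was tested on simulated data. Log2 differences are given for the 3 genes with the smallest p in a comparison where fewer than 3 pass; naming genes in the fits without some cultures by the same rule was chosen after seeing the data. The members and gene lists were chosen with earlier results of these data known. Alternatives were DESeq2 1.42.0, limma 3.58.1 (voom with quality weights), other scaling and filters, sex terms and left-out cultures. Correlations used 100000 permutations (Python 3.11.15, scipy 1.17.1). Levels of 3 or fewer counts were treated as at the floor of detection, which covers counting error only.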

Additional observations from a re-analysis of the deposited data

Results flagged for a closer look

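A gap test on CPM within each group of 4 to 6 cultures, over 30 sets of 1 gene and 1 group, marked 8 values. Each was far from the rest of its group. Chance marks about 1 in 20 such sets where values are normally distributed. The CPM values were not on a log scale and the sets share cultures, so that rate is not a measure for these 8. Of the 8, 5 were of culture WT 12M S6: Jag1 at 375 CPM, Notch1 at 77.8 CPM, Notch3 at 53.6 CPM, Hey1 at 15.9 CPM and Heyl at 19.5 CPM, each the highest of WT 12M. The same culture had Schwann and neural crest markers summing to 1250 CPM, and their part in these values was not tested. Dll1 was at 2.69 CPM in Het 12M S16, above the other 5 cultures of its group. Rbpj was at 165 CPM in Het 12M S9, the culture with 36000 CPM of macrophage and myeloid markers. Hey1 was at 10 CPM in WT 3M S12, above the other 3 cultures of its group.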

How the results depend on the processing

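No paired analysis was possible because the technical replicate numbers mark lanes of 1 library and the S numbers are not shared between groups. Of 286 alternative values for the named log2 differences, 279 kept direction and side of the threshold, 4 newly passed it and 3 changed sign. Notch1 in Het 12M against WT 12M was 0.35 without WT 12M S6, Het 12M S9 and Het 12M S15 and ran from -0.76 to 0.38 with each culture left out, the highest without WT 12M S6. Heyl in WT 12M against WT 3M was -1.79 with voom. Without those 3 cultures the correlations of Hey1 with Notch1 and with Jag2 were -0.03 and -0.12. The number of genes of the 10 that passed was 1 with voom in Het 3M against WT 3M (Dll1), 3 in WT 12M against WT 3M (Notch3, Dll1 and Hes1) and 3 in the interaction (Jag1, Dll1 and Hes1), and 0 under all other alternatives run, DESeq2 included. Heyl had no adjusted p with DESeq2. The number of all genes that passed was 1292 with voom in Het 3M against WT 3M, and for the 12-month genotypes it was 106 with DESeq2, 171 with voom and 0 to 2 with each culture left out. It was 53 with DESeq2, 1508 with voom and 2 without the 3 cultures in WT 12M against WT 3M, 1 with DESeq2 and 1 with voom in Het 12M against Het 3M, and 35 with DESeq2 and 939 with voom in the interaction. The voom fit weights cultures by quality. The cause of these shifts was not tested. Depth limits Heyl, Jag2 and Dll1, which had 0 to 56 counts outside WT 12M S6. Isoforms, Notch protein and receptor cleavage were not measured.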
